A study of Mus musculus with 15 samples.

Results

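The distal 5 Mb of the mouse autosomes are the last 5000000 bases of chromosomes 1 to 19, the ends farthest from the centromere. Their members were chosen by position alone, as every het, int or euch domain whose midpoint lay there, with the chromosome end taken as the largest end in the deposited lists (mm9). They numbered 12027 of the 346085 domains of the series, with 4604 in the first map named here, 4249 in the second and 3174 in the third. Shares of bases were taken over the 19 end segments themselves, 95 Mb in all, and set against the other 2377 Mb of the same chromosomes.

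The maps come from srHC-seq of hepatocytes isolated by liver perfusion, an assay that separates large from small fragments of crosslinked, sonicated chromatin and so tells sonication-resistant from accessible DNA. The first group was wild type (Wt) at postnatal day 14 (P14), with 3 males and 2 females. The second was Alb-Cre;Ezh1-/-;Ezh2f/f at P14, called the knockout here, with 2 males and 3 females. In these mice Cre under the albumin promoter removes Ezh2 from cells of the liver that express albumin, and Ezh1 is lost from the whole animal. The third was wild type at 2 months, with 2 males and 3 females. The labels do not say whether the wild types carried floxed alleles or Cre. Perfusion and buffer volumes also differed between the ages, so age and handling cannot be told apart.

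The 5 animals of a group were read as pooled into 1 map, in which each base is het (closed), int (intermediate) or euch (open). For euch at 2 months this reading is less certain, since 1 female does not name that list. With 1 map per group there is no replicate check, and no p-value is given. A spread over chromosomes below describes the genome and not the animals. The lists hold no read counts, so the depth behind a call is unknown, and they hold no expression, so the cell type could not be checked against markers.

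Mouse autosomes have their centromere next to one end, so the distal end is the end of the only long arm, shortly before the telomere. Heterochromatin is compact and mostly silent, and euchromatin is accessible and holds most active genes. Ezh1 and Ezh2 are the alternative catalytic subunits of PRC2, which methylates lysine 27 of histone H3 and keeps developmental genes repressed. In the liver, hepatocytes go on maturing for weeks after birth, and PRC2 is known to time part of that change.

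The distal ends were more closed than the rest of the autosomes in the P14 wild type and more open than the rest at 2 months. In the P14 wild type, het covered 50.9% of the distal bases and euch 39.9%. At 2 months het covered 45.0% and euch 47.2%, so that euch differed by 6.90 Mb and het by -5.61 Mb. In the P14 knockout het covered 48.5% and euch 43.1%, values between those of the other maps. Int covered 9.20%, 8.42% and 7.84% of the distal bases in the P14 wild type, the P14 knockout and the 2-month wild type. In the rest of the autosomes euch covered 42.8% in the P14 wild type, 42.4% in the knockout and 42.8% at 2 months, and het 45.2%, 45.9% and 46.3%. How calls were scaled within each map is not given in the sources used here, and the distal values are therefore set beside the rest of the same map.

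Openness was summarised by subtracting the percentage of het bases from that of euch bases, as fractions, which runs from -1 (all het) to 1 (all euch). For the distal ends this score was -0.110 in the P14 wild type, -0.0547 in the P14 knockout and 0.0219 at 2 months. For the rest it was -0.0235, -0.0349 and -0.0344. The score of the distal ends was thus higher by 0.132 at 2 months and by 0.0551 in the knockout than in the P14 wild type. That of the rest differed by -0.0109 and -0.0114. Both comparisons use the same P14 wild-type map, so its errors enter both, and their likeness is not given as a result. The sign of the distal score at 2 months rests on single chromosomes: without chromosome 6 it was -0.00250. Distal minus rest was -0.0863 in the P14 wild type, but -0.0380 with ends of 2 Mb. At 2 months it was 0.0563, but 0.0263 without chromosome 1 and 0.0967 without chromosome 18. The knockout's distal score minus that of the rest was -0.0198, but without chromosome 2, 3, 4, 17 or 18 they were above it, by up to 0.0123 (without 18).

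The ends differed among themselves. Relative to its own rest, the distal segment was more open on 10 of 19 autosomes in the P14 wild type, on 10 in the knockout and on 11 at 2 months. The pooled distal score in the P14 wild type was below that of the rest, while single ends were split about evenly, 10 above their own rest and 9 below. With ends of 2, 3 and 10 Mb the number above was 8, 9 and 5. Chromosome 4 had the most closed end at P14, with a score of -0.532, and was followed by chromosome 18 with -0.433 and chromosome 2 with -0.397. Chromosome 6 had the most open end, with 0.195. Over the 19 segments the SD of the score was 0.208 in the P14 wild type, 0.304 in the knockout and 0.372 at 2 months, so the ends lay farther apart from each other at 2 months. For the rest the SDs were 0.0965, 0.0984 and 0.114, over much longer segments. In most steps of 1 Mb from 5 to 20 Mb from the end, the SD over autosomes was also higher at 2 months than in the P14 wild type. The wider spread was thus not particular to the ends.

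**Figure D1:**
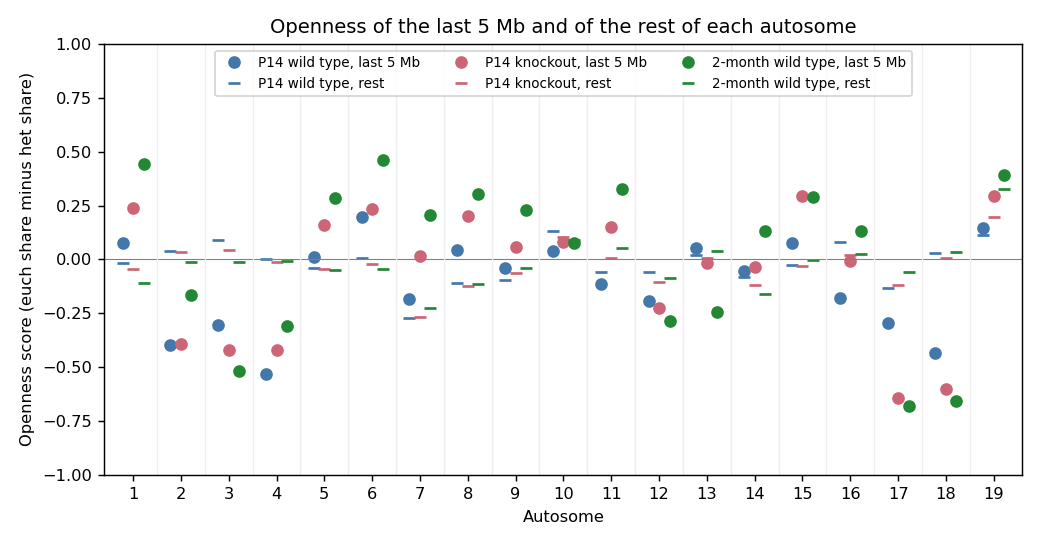
Openness score (euch minus het fraction, from -1 to 1) of each autosome in the 3 maps, with circles for the last 5 Mb and dashes for the rest of the chromosome. Green circles lie above blue ones on 14 of 19 autosomes, while chromosomes 3, 12, 13, 17 and 18 have the reverse order.

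With age, the distal score was higher on 14 of 19 autosomes and lower on 5. The change over the 19 segments had a mean of 0.132 with an SD of 0.25, a median of 0.231 and a range from -0.386 to 0.440. It was above the change of the chromosome's own rest on 14 of 19, by 0.233 at the median. The rest itself had a higher score at 2 months on 8 autosomes and a lower one on 11. On chromosome 11 the distal score was -0.113 in the P14 wild type, 0.150 in the knockout and 0.328 at 2 months, the largest gain with age. On chromosome 7 it was -0.183, 0.0173 and 0.206 in the same order. On chromosome 1 it was 0.0763, 0.236 and 0.444, while the rest of chromosome 1 had -0.0171, -0.0466 and -0.109. The end of chromosome 1 and the rest of it thus differed from the P14 wild type in opposite directions.

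The exceptions with age were chromosomes 3, 12, 13, 17 and 18. Chromosome 17 had the largest loss, from -0.297 in the P14 wild type to -0.683 at 2 months, with -0.644 in the knockout. Its euch share there was 27.9% in the P14 wild type, 13.5% in the knockout and 12.8% at 2 months. The end of chromosome 13 had scores of 0.0539, -0.0185 and -0.243, and was the one end to go from more open to more closed than its rest. The end of chromosome 18 had -0.433, -0.604 and -0.659, so an end that was already closed at P14 was called closed over more of its length. Chromosome 12 differed least among these, by -0.0938 with age.

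The age difference of an end ranked high among the stretches of the same chromosome on many autosomes. The neighbouring stretch, 5 to 10 Mb from the end, had a larger pooled difference, 0.167 against 0.132. Each chromosome was cut into stretches of 5 Mb counted back from its end, 12 to 39 of them. The distal stretch had the largest gain of its chromosome on 3 autosomes (1, 7 and 11), and it was in the top 25% on 12 autosomes. On 1 autosome, chromosome 17, it had the lowest value of all 19 stretches. By level rather than change, the distal stretch was in the top 25% for openness on 1 autosome in the P14 wild type. It was there on 6 in the knockout and on 6 at 2 months.

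In the knockout, the distal score was higher than in the P14 wild type on 14 of 19 autosomes and lower on 5. The mean difference was 0.0551 with an SD of 0.153 over the 19 segments, and the median was 0.100. It was above the difference of the chromosome's rest on 15 of 19 autosomes. The largest gains were on chromosome 11 (0.263), chromosome 15 (0.22) and chromosome 7 (0.201). On chromosome 15 the knockout score of 0.295 was close to that at 2 months, 0.289. The largest losses were on chromosome 17 (-0.347), chromosome 18 (-0.171) and chromosome 3 (-0.114). The end of chromosome 2 showed the maps apart, with -0.397 in the P14 wild type and -0.393 in the knockout but -0.166 at 2 months. The distal stretch had the largest gain of its chromosome in the knockout on 3 autosomes, 7, 11 and 16, and was in the top 25% on 9.

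The distal signal was not confined to the last 5 Mb. In the neighbouring stretch, 5 to 10 Mb from the end, the score was -0.140 in the P14 wild type, -0.0717 in the knockout and 0.0274 at 2 months. Its difference with age, 0.167, was larger than that of the last 5 Mb, and was positive on 16 of 19 autosomes. From 10 to 15 Mb the difference was 0.0894, from 15 to 20 Mb 0.0386 and from 20 to 25 Mb 0.0585. From 25 to 60 Mb it had both signs, between -0.0730 (30 to 35 Mb) and 0.0334 (45 to 50 Mb). In the knockout the differences were 0.0682 from 5 to 10 Mb, 0.0302 from 10 to 15 Mb and 0.0227 from 15 to 20 Mb. From 20 to 25 Mb the knockout difference was 0.0507, close to the 0.0551 of the last 5 Mb. Within the last 5 Mb, the terminal 1 Mb was the most open in every map, with -0.00541, 0.0492 and 0.107 in the P14 wild type, the knockout and at 2 months. The 4 Mb before it had -0.136, -0.0806 and 0.000523. The age difference was alike in both, 0.113 for the terminal 1 Mb and 0.136 for the 4 Mb before it. On 12 of 19 autosomes the terminal 1 Mb was more open than the mean of the other 4 windows, in each of the 3 maps.

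**Figure D2:**
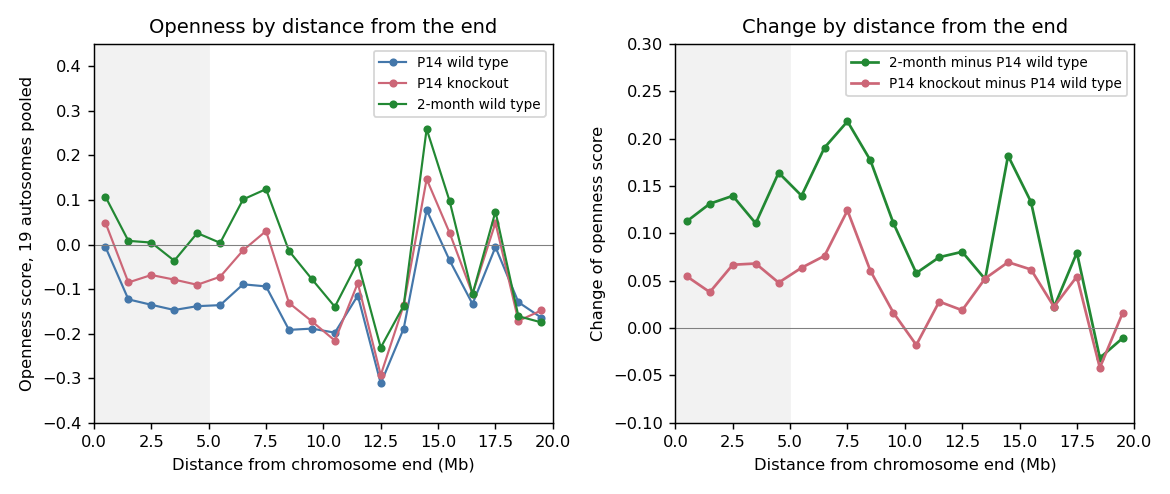
Openness score (left) and its difference from the P14 wild type (right) in steps of 1 Mb from the chromosome end, over the 19 autosomes pooled, with the last 5 Mb shaded. The age difference stays between 0.111 and 0.218 over the first 10 steps and is -0.0105 in the last step shown.

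Cut into windows of 1 Mb, the 19 ends gave 95 windows. The median age difference was 0.189 in the distal windows, against 0.0350 in the 2368 windows of the rest. Of the 95, 70 were above 0, or 73.7%, against 55.3% of all 2463 autosomal windows. The median knockout difference was 0.0940 against 0.00421, and 65 of the 95 were above 0, or 68.4%, against 51.6% of all windows. All 5 distal windows were above 0 with age on 12 autosomes, and none was on chromosome 13. In the knockout all 5 were above 0 on 9 autosomes and none was on chromosomes 17 and 18.

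Large differences were few. With age, 6 of 95 distal windows had a score higher by more than 0.5, or 6.32% (exact binomial interval 2.35 to 13.2), where 1.95% of all 2463 autosomal windows did. A score lower by more than 0.5 was found in 3 distal windows, 3.16% (0.656 to 8.95), where 8.97% of all windows had one. No such gain was seen in the knockout (0 of 95 windows, against 0.0812% of all). A loss of that size occurred there once, against 0.650% of all windows (1 of 95). With a threshold of 0.25, 40 distal windows were higher with age and 13 lower, 42.1% and 13.7%, against 21.4% of all windows in both directions. In the knockout 8 were higher and 7 lower, 8.42% and 7.37%, against 5.48% and 11.2% of all windows. For age, the background share lay outside the counting interval for gains at both thresholds. For losses it lay just outside at 0.5 (8.97% against an upper bound of 8.95) and inside at 0.25 (7.49 to 22.3). For the knockout it lay inside the interval in each case. Such intervals, at a level of 95%, cover counting error alone, and neighbouring windows are not independent.

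**Figure D3:**
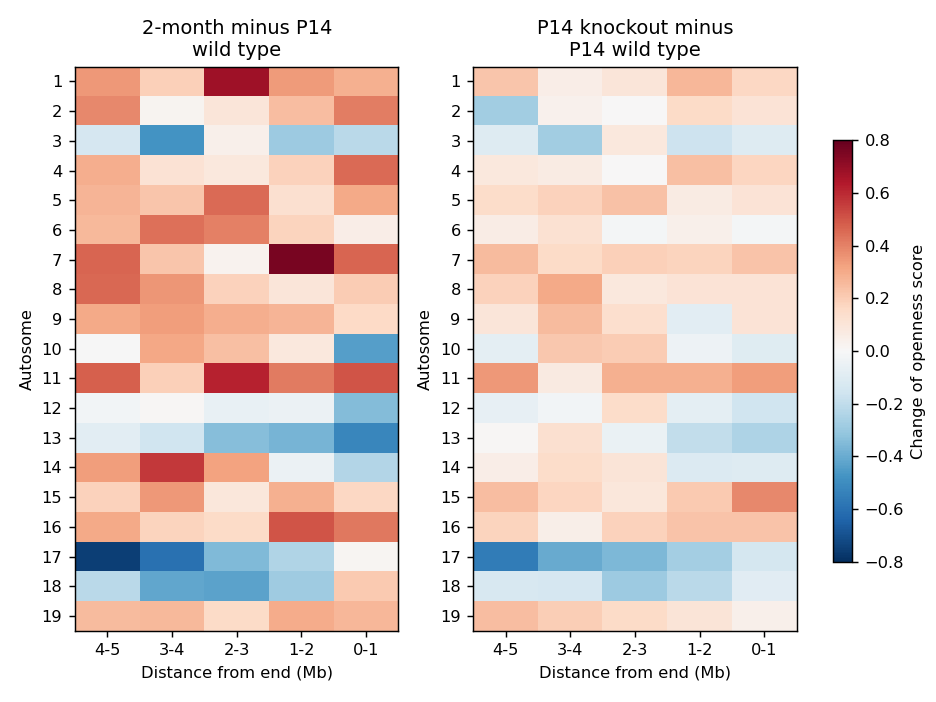
Difference of openness score from the P14 wild type in each 1 Mb window of the 19 chromosome ends, with age (left) and in the knockout (right). Rows are autosomes, columns are the distance from the end, and red means more open, so that 12 rows are red throughout on the left and chromosome 17 is mostly blue in both panels.

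The window with the largest gain with age lay on chromosome 7 from 150524554 to 151524553, 1 to 2 Mb from the end. Het covered 560 kb of it in the P14 wild type, 456 kb in the knockout and 190 kb at 2 months, and euch 332, 408 and 722 kb. Its score was -0.228, -0.0480 and 0.532 in that order. Next came chromosome 1 from 194195433 to 195195432, with -0.0860, 0.0100 and 0.595. The scores of the window on chromosome 11 (118843857 to 119843856) were -0.116, 0.166 and 0.502. On chromosome 14 (121194865 to 122194864) they reached 0.192, 0.338 and 0.759. The window of chromosome 16 (96319151 to 97319150) stayed below 0 in every map, at -0.581, -0.355 and -0.0763. In these 5 windows the knockout score lay between the wild-type scores, close to the middle on chromosomes 11 and 16 and nearer to the P14 wild type on the other 3. The windows were picked for a wide gap between the wild-type scores, which makes a score in between more likely, so this is description only.

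The 5 largest losses with age included 2 windows of chromosome 17. From 90272652 to 91272651 the score was 0.00130 in the P14 wild type, -0.561 in the knockout and -0.754 at 2 months. There euch covered 421 kb in the P14 wild type, 168 kb in the knockout and 98 kb at 2 months. The next window, from 91272652 to 92272651, had -0.0340, -0.439 and -0.631. The terminal window of chromosome 13, from 119284313 to 120284312, had -0.242, -0.492 and -0.764. On chromosome 3 the window from 155599784 to 156599783 had -0.132, -0.410 and -0.612. The terminal window of chromosome 10, from 128993256 to 129993255, had -0.201, -0.301 and -0.643. In all 5 windows the knockout score also lay between the wild-type scores, and the same limit holds, since these too were picked for that gap. Chromosome 10 combined this more closed tip with little difference over the whole end, which had 0.0399 in the P14 wild type and 0.0771 at 2 months.

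The largest knockout gain belonged to the terminal window of chromosome 15 (102494975 to 103494974). Its score was -0.0510 in the P14 wild type, 0.333 in the knockout and 0.113 at 2 months. This window was thus more open in the knockout than in either wild type, with 623 kb of euch against 433 and 505 kb. Chromosome 11 held 3 of the 5 largest gains. The window from 116843857 to 117843856 had -0.150, 0.194 and 0.326, and the terminal window, from 120843857 to 121843856, had 0.0561, 0.390 and 0.558. The third was the one already named for age. On chromosome 8 the window from 127738872 to 128738871 had -0.658, -0.356 and -0.304.

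Chromosome 17 held the 3 largest losses in the knockout, the third from 92272652 to 93272651 with -0.323, -0.684 and -0.675. Chromosome 18 from 87772032 to 88772031 followed, with -0.534, -0.826 and -0.962. The fifth was chromosome 2 from 176748088 to 177748087, and there the knockout and age went apart. Its score was -0.198 in the P14 wild type, -0.478 in the knockout and 0.186 at 2 months, with 344, 198 and 476 kb of euch.

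**Figure D4:**
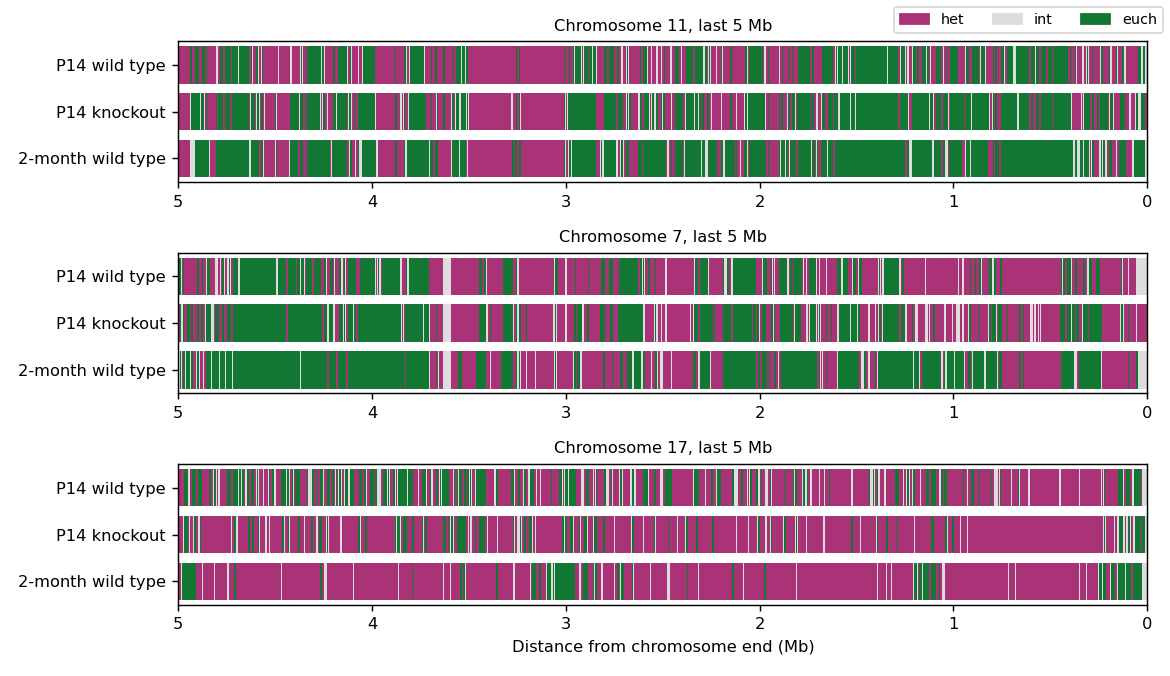
Domain calls along the last 5 Mb of chromosomes 11, 7 and 17, with 1 track for each map and the distance from the chromosome end in Mb. Het is purple, int grey and euch green. Green blocks lengthen from top to bottom track on chromosomes 11 and 7, and on chromosome 17 purple takes the place of green in the knockout and at 2 months.

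Gene names help to place these ends. The deposited lists are in mm9 and the gene table at hand, from RefSeq, is of assembly GRCm38.p6, so no gene was placed in a domain or window. By gene order alone, the last named protein-coding genes of chromosome 1 include Hsd11b1, whose enzyme reactivates glucocorticoids, G0s2, an inhibitor of lipolysis, and Cr2, a complement receptor. Those of chromosome 7 include Fgf15, a gut hormone that lowers bile acid synthesis, and Ccnd1, which encodes cyclin D1 and drives entry into the cell cycle. Those of chromosome 11 include Foxk2, a forkhead transcription factor, and Tbcd, a tubulin-folding cofactor. Those of chromosome 17 include the gonadotropin receptor genes Lhcgr and Fshr and Adcyap1, which encodes a neuropeptide. Those of chromosome 3 include Negr1, a neuronal adhesion protein, and Rpe65, an enzyme of the retinal visual cycle. Those of chromosome 10 are mostly olfactory and vomeronasal receptor genes. The names are a choice from longer lists, which also hold Fgf3 and Mrgprd on chromosome 7 and Cth and Srsf11 on chromosome 3. They do not tell what kinds of genes an end holds. How these genes were called was not analysed here.

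Counted by bases, the distal ends had more gain and less loss of openness with age than the rest. Of the distal bases, 18% were called more open at 2 months than in the P14 wild type and 9.64% more closed, a net of 8.35 percentage points. In the rest the shares were 13.5% and 13.9%. The share of bases with another class was close, 27.6% in the distal ends and 27.4% in the rest, so the distal ends differed in the balance of directions and not in the amount. This balance was not particular to the last 5 Mb: from 5 to 10 Mb the shares were 18.4% more open and 7.74% more closed, a net of 10.6 points. Of distal bases that were het in the P14 wild type, 18.2% were euch at 2 months, against 14.0% in the rest. Of distal bases that were euch, 11.2% were het at 2 months, against 16.3% in the rest. Of distal int bases, 48.6% were euch at 2 months, against 29.2% in the rest. Runs of at least 100 kb that were int in all 3 maps made up 72.6 Mb of the rest and 0.22 Mb of the distal ends, and without them the share of int bases that were euch at 2 months was 49.9% in the distal ends and 39.2% in the rest. The single distal run lies on chromosome 16 from 94122001 to 94342000.

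The loss of euch was uneven over the ends. The share of distal euch bases that were het at 2 months had a median of 3.71% over the 19 autosomes but ranged from 1.29% to 67.9%. It was below the value of the chromosome's rest on 14 of 19. The share of distal het bases that were euch at 2 months had a median of 22.5% and ranged from 3.00% to 36.2%, and was above the rest on 12 of 19.

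In the knockout, 13.7% of distal bases were called more open than in the P14 wild type and 9.99% more closed, a net of 3.74 points, against 12% and 12.6% in the rest. Of distal het bases 11.7% were euch in the knockout, close to the 11% of the rest. Of distal euch bases 10.5% were het, against 12.8% in the rest, and of distal int bases 39.1% were euch, against 27.4%. This too was not particular to the last 5 Mb. From 5 to 10 Mb the net was 4.40 points, with 9.50% of euch bases het and 39.1% of int bases euch in the knockout. Without the long constant int runs, the knockout share for int bases was 40.1% in the distal ends and 36.7% in the rest. All 3 maps had the same class in 65.4% of distal bases and in 65.0% of the rest.

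The distal ends were also compared with windows of a like score in the P14 wild type. Among windows with a P14 wild-type score from -0.2 to 0.2, the 38 distal windows had a mean age difference of 0.163 (SD 0.334) and the 884 others -0.0335 (SD 0.364). Among those from -0.6 to -0.2, the 32 distal windows had 0.0553 (SD 0.331) and the 572 others -0.0435 (SD 0.317). Among those from 0.2 to 0.6, the 15 distal windows had 0.262 (SD 0.135) and the 546 others 0.0319 (SD 0.296). In the knockout the distal means were 0.0740, 0.00646 and 0.132 for these 3 levels in the same order, and those of the others -0.0204, -0.0434 and 0.0250. The 15 distal windows of the highest of these levels, and the 7 and 3 in the outer levels, are too few to rest a statement on.

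Whole domains were counted next. Of the 1596 distal het domains of the P14 wild type, 521 were mostly euch at 2 months, that is over at least 50% of their length, or 32.6% (30.3 to 35.0), where 24.2% of all autosomal het domains did. Of the 1538 distal euch domains, 370 were mostly het, or 24.1% (21.9 to 26.3), against 32.6% of all. In the knockout 313 het domains were mostly euch, 19.6% (17.7 to 21.6) against 17.5%, and 322 euch domains mostly het, 20.9% (18.9 to 23.1) against 24.4%. Domains lying next to each other share their surroundings, and these intervals cover counting error alone. Long domains rarely took the opposite class, in the distal ends as in the rest. Of distal het domains of at least 50 kb, 8 of 231 were mostly euch at 2 months, 3.46% against 2.77% in the rest. In the knockout 0 of 231 were, which allows a share of up to 1.58% (exact binomial), against 0.448% in the rest. Of distal het domains under 10 kb, 226 of 407 were mostly euch at 2 months, 55.5%, against 40.04% in the rest.

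**Figure D5:**
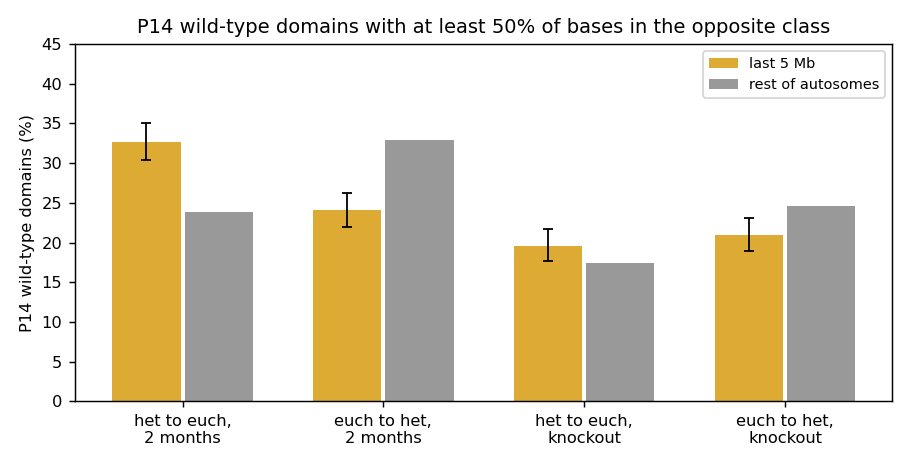
Percentage of P14 wild-type domains with at least 50% of their bases in the opposite class in the 2-month or knockout map, for the last 5 Mb (yellow, with 95% exact binomial intervals for counting error) and the rest of the autosomes (grey). With age the yellow bar is above the grey one for het to euch, 32.6% and 23.9%, and below it for euch to het, 24.1% and 32.9%.

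Distal domains were fewer and longer at 2 months. Their number was lower by about as much as elsewhere, while mean length was higher by more than in the rest for euch and by less for het. There were 48.5 domains of any class per Mb of the distal ends in the P14 wild type, 44.7 in the knockout and 33.4 at 2 months. Relative to the P14 wild type, the number differed by -31.1% with age and by -7.71% in the knockout. In the rest it differed by -29.6% and -8.05%. Distal het domains numbered 1596, 1481 and 1035, and euch domains 1538, 1398 and 1031. Both classes were longer at 2 months in the distal ends and in the rest. The mean length of a distal euch domain was 24.6 kb in the P14 wild type, 29.2 kb in the knockout and 43.5 kb at 2 months. Het domains there averaged 30.0, 31.4 and 41.2 kb. In the rest euch domains had means of 26.1, 29.0 and 40.8 kb, and het domains 27.0, 29.9 and 40.1 kb. Distal euch domains were longer at 2 months than in the P14 wild type on all 19 autosomes, including the 5 whose ends were more closed. Distal het domains were longer on 11 of 19. Euch domains of at least 200 kb numbered 11, 24 and 41 in the distal ends, and het domains of that length 23, 23 and 31. Per 100 Mb the long euch domains came to 11.6, 25.3 and 43.2 in the distal ends and to 18.59, 23.9 and 43.03 in the rest. For het these densities were 24.2, 24.2 and 32.6 against 18.5, 23.1 and 33.4. At 2 months the distal ends thus held long domains of both classes at about the density of the rest.

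The longest distal domains of one map were mostly of the same class in the others, but often in several pieces. In the P14 wild type the longest het domain was 1410 kb on chromosome 4, from 151708001 to 153118000, of which 98.9% was het in the knockout and 97.3% at 2 months. In the knockout it was 1618 kb on chromosome 12, from 115642001 to 117260000, with 94.6% het in the P14 wild type in 13 separate domains. At 2 months it was 1284 kb on chromosome 3, from 157848001 to 159132000. That stretch was 80.5% het in 26 domains in the P14 wild type, and 93.0% het in 12 domains in the knockout. The longest euch domain was 502 kb in the P14 wild type (chromosome 8, from 129580001 to 130082000), 612 kb in the knockout (chromosome 1, from 196042001 to 196654000) and 650 kb at 2 months (chromosome 10, from 127170001 to 127820000). The last of these was 90.5% euch in 7 domains in the P14 wild type.

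Unbroken stretches with het in one map and euch in the other covered few kb each. There were 1151 distal stretches het in the P14 wild type and euch at 2 months, with a median of 6 kb, and 597 in the reverse direction. Per Mb these were 12.1 and 6.28, against 8.96 and 9.17 in the rest. The longest of the first kind spanned 76 kb of chromosome 7 (151384001 to 151460000), and in the knockout 71.1% of it was het. The second, of 48 kb, lay on the same chromosome from 151268001 to 151316000, and the third was 46 kb on chromosome 9, from 121862001 to 121908000. The longest from euch to het were 44 and 42 kb on chromosome 17, from 91814001 to 91858000 and from 91412001 to 91454000. In the knockout both were mostly euch, at 63.6% and 57.1%. The next, 40 kb on chromosome 3 from 155768001 to 155808000, was 65.0% het and 0% euch in the knockout.

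In the knockout itself, 984 distal stretches were het in the P14 wild type and euch in the knockout, with a median of 4 kb, and 695 were the reverse. Per Mb these were 10.4 and 7.32, against 8.74 and 9.15 in the rest. The longest from het to euch were 36 and 30 kb on chromosome 11, from 117432001 to 117468000 and from 120866001 to 120896000, and 26 kb on chromosome 15, from 102080001 to 102106000. At 2 months euch covered 83.3%, 73.3% and 30.8% of them. The longest from euch to het were 26 kb on chromosome 3 (155782001 to 155808000), 24 kb on chromosome 18 (89658001 to 89682000) and 22 kb on chromosome 13 (119508001 to 119530000). At 2 months het covered 100%, 75% and 100% of these.

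At the tip itself, the last domain was int on all 19 autosomes in all 3 maps, with a median length of 7.43 kb in the P14 wild type, 6.31 kb in the knockout and 14.9 kb at 2 months. These last intervals end off the grid of 2 kb on which the other autosomal edges lie. The domain before it was euch on 11 autosomes in the P14 wild type, on 10 in the knockout and on 15 at 2 months, and het on the others. The last 500 kb had a median score of 0.0558, 0.136 and 0.308 over the 19 autosomes in the same order. The longest terminal int domain was 166 kb, on chromosome 13 at 2 months, where the P14 wild type and the knockout had 6.31 kb.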

How the data were processed

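Per the labels, srHC-seq was run on 15 samples in 3 groups of 5. The submitters' processing notes name mm9 as the build and list STAR 2.4.2a, bcl2fastq 2.19.0.316 and bedtools. The domain caller and its thresholds are not given in the sources used here. The deposited files are 9 interval lists, 1 per class and group, with edges on a grid of 2 kb. The deposited score column is 0 throughout, so the lists carry no depth, and a domain's precision cannot be given.

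The maps were cut at every edge and summed by base, without binning, with Python 3.11.15, NumPy 2.4.6, pandas 2.3.3, SciPy 1.17.1 and Matplotlib 3.10.9. The code was tested on simulated data. Windows of 1 Mb were counted back from each chromosome end. Coordinates are 1-based. No replicate test was possible. Alternatives changed the length of the end, the window, the threshold, the handling of domain edges, short domains and long int runs, and the weighting of chromosomes. The regions named are the 3 highest and lowest ends, the 5 windows with the largest gain and loss, the longest domains and the 3 longest stretches; further ends were named after their values were seen. The members and comparisons were chosen with earlier results of these data known. Gene names come from RefSeq gene order in GRCm38.p6 and sequences were not used.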

Additional observations from a re-analysis of the deposited data

How the results depend on the processing

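Each group is 1 map of unknown depth, and every distal value rests on 19 segments. No paired analysis was possible because each group's animals share 1 map, and no replicate could be left out, so each autosome was left out in turn. A shift counted as small within a 95% binomial interval over windows, or within 1.5 times for counts and lengths. Of the 68 values recomputed, 470 values under other settings shifted little, 23 shifted more and 5 changed sign. Leaving out an autosome was counted apart, with 1287 values that shifted little and 5 differences that changed sign. For openness the allowed shift was larger than the scores and differences themselves, so almost any shift short of a sign change counted as small. The number of small shifts therefore does not show that openness was stable. One setting, the rest without its first 5 Mb, was chosen after seeing the data.

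The distal age difference of openness, 0.132, ranged from 0.115 (without chromosome 11) to 0.160 (without 17), and the knockout difference, 0.0551, from 0.0436 to 0.0775. The distal score at 2 months ranged from -0.00250 (without 6) to 0.0610 (without 17). Distal minus rest in the knockout, -0.0198, ranged from -0.0392 to 0.0123 with 1 autosome left out, and was 0.0180 with ends of 2 Mb and 0.000910 with ends of 3 Mb. The percentage of distal windows lower by more than 0.5 with age fell to 1.11% without chromosome 17, from 3.16%, and of those higher to 4.44% without chromosome 11, from 6.32%. In the knockout the 1 lower distal window lay on chromosome 17, and without it the share was 0%.

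The difference of the rest with age changed sign to 0.00613 without bases within 5 kb of an edge and to 0.00153 as an unweighted mean over chromosomes, and that in the knockout to 0.00615 without bases within 5 kb. Without bases within 1 kb of an edge, 11.9% of the rest was more open and 12% more closed with age, and 10.5% and 10.7% in the knockout. Without bases within 5 kb these were 6.88%, 6.21%, 5.79% and 5.24%, and in the distal ends 9.99%, 3.87%, 7.01% and 3.58%, from 18%, 9.64%, 13.7% and 9.99%; fewer bases near edges remain by construction. With ends of 10 Mb, 5 autosomes had a more open end than rest in the P14 wild type. At a threshold of 0.25 the shares of windows higher and lower were 42.1% and 13.7% (distal) and 20.5% and 21.7% (rest) with age, and 8.42% and 7.37%, and 5.36% and 11.3%, in the knockout. In windows of 500 kb the rest had 4.09% higher and 11% lower with age, and 0.4003% and 1.62% in the knockout. With whole domains by midpoint, 2.82% of the windows of the rest were higher with age. The cause of the other shifts was not tested.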

Other observations

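The distal 5 Mb of chromosome X, kept out of all autosomal values because the groups differ in their numbers of males and females, had openness scores of 0.279 in the P14 wild type, 0.303 in the knockout and 0.141 at 2 months. The rest of chromosome X had 0.111, 0.134 and 0.0159 in the same order.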
